A study of Mus musculus with 3 samples.

Results

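The columns headed M2 and CD4 of a table of RNA levels were compared gene by gene. The members are the genes with 1 FPKM or more in at least one of these columns, 12438 of the 36835 mouse genes in the table, or 33.8%. FPKM is the number of sequenced fragments scaled to transcript length and to the total of the library, so that levels of genes of different length can be set side by side. At the minimum, Gm8619 was just inside with 1.00 FPKM in column M2 and 0.226 in column CD4, and Dclk2 just outside with 0.9999 and 0.457 FPKM.

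The study asked whether tumor-associated macrophages contain Foxp3 mRNA, and sequenced sorted cells of BALB/C mice bearing Renca tumors, a mouse renal carcinoma line, grown inside the kidney. Type-2 macrophages (M2, sorted as F4/80 high and CD11b intermediate), type-1 macrophages (M1, F4/80 intermediate and CD11b high) and CD4 T lymphocytes (TCRbeta+ CD4+) gave 1 library each, 3 in all, of which the libraries labelled M2 and CD4 are compared here. The cells came from a pool of 30 tumors and 4 spleens of tumor-bearing mice, with an anti-CD45.2 antibody in the stain. The labels differ on the harvest, at day 14 in one field and day 16 in another, and on the organ of the CD4 cells, which are said to be from tumors in one field and from spleens in another. All 3 groups carried the tumor, and no other treatment is given. Each library is a single pool, so every difference below is between libraries with no replicate, no test was possible, and no p-value is given.

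The levels went against the labels of the columns. Column M2 held the genes of T lymphocytes at high levels, and column CD4 the genes of macrophages. The columns are therefore called by their headings throughout (column M2, column CD4 and column M1), without saying which cells each library was made from. A T lymphocyte recognises peptides on MHC molecules with its receptor, an alpha and a beta chain, and passes the signal on through the CD3 chains, the kinases Lck and Zap70 and the adaptor Lat. Macrophages depend on the receptor Csf1r for survival, take up particles and opsonised cells through Fc, complement and scavenger receptors, and digest them in lysosomes. In bulk samples of this kind, fewer cells of a type and less RNA per cell cannot be told apart.

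Cell type markers and the genes of the sort antigens are given first. Cd3e, a signalling chain of the T-cell receptor on chromosome 9, was at 126 FPKM in column M2, 0.141 in column CD4 and 0.131 in column M1. Csf1r, the receptor for macrophage colony-stimulating factor on chromosome 18, was at 15.3 FPKM in column M2, 519 in column CD4 and 279 in column M1. Emr1, the gene of the sort antigen F4/80, had 9.16 FPKM in column M2 against 215 in column CD4 and 45.3 in column M1. Column M2 was thus the highest of the 3 for Cd3e and the lowest for Csf1r and Emr1. Itgam, which encodes CD11b, was likewise lowest in column M2, with 14.7 FPKM against 201 in column CD4 and 299 in column M1. Cd4 itself, the co-receptor that names the T-cell subset, was at 166 FPKM in column M2, 15.2 in column CD4 and 0.870 in column M1. Foxp3, the transcription factor of regulatory T cells that the study set out to measure, was at 24.9 FPKM in column M2 and was listed at 0 in the other columns. These values cover annotated transcripts only. A Foxp3 transcript in a row without an identifier would not be counted in them. Ptprc, which encodes the leukocyte antigen CD45, was at 285, 125 and 193 FPKM.

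**Figure D1:**
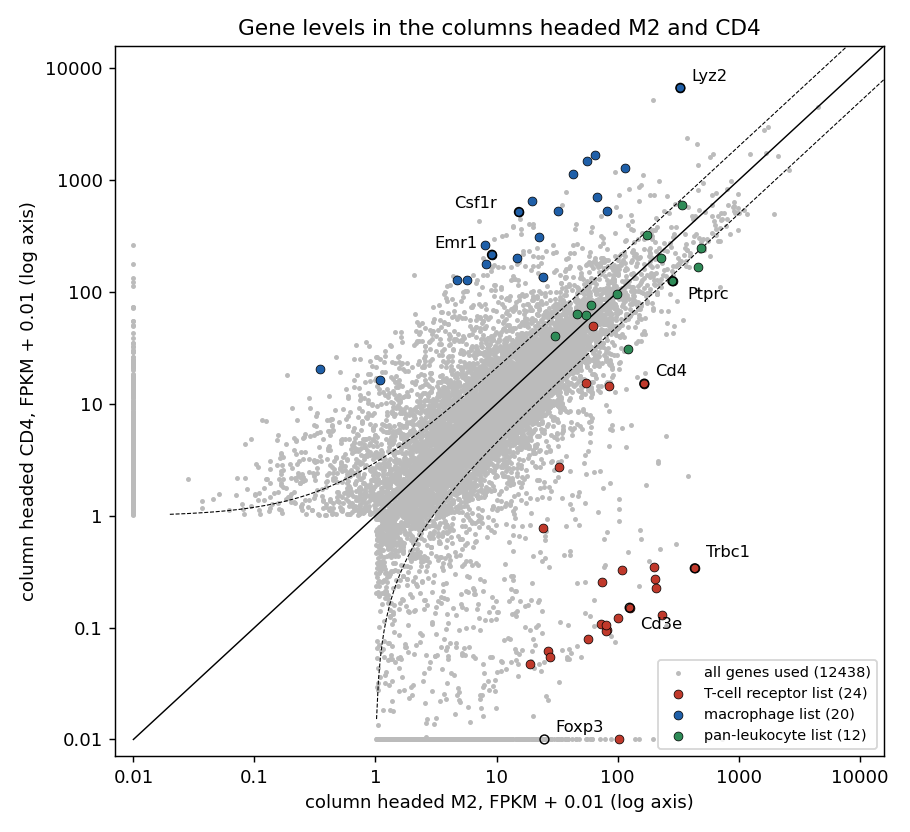
Each point is a gene, with its level in column M2 on the horizontal axis and in column CD4 on the vertical axis (FPKM + 0.01, log axes, so genes listed at 0 lie at 0.01). The dashed lines mark a log2 ratio of FPKM + 1 of 1 in size. The 24 genes of the T-cell receptor list (red) lie below the solid line of equality, most of them below 1 FPKM in column CD4. The 20 genes of the macrophage list (blue) lie above it, and the 12 pan-leukocyte genes (green) lie around it.

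Across all 12438 genes, differences were measured as the log2 ratio of FPKM + 1, column M2 over column CD4, which understates the change of low genes. A gene was called higher in a column where this ratio was at least 1 in size. By this rule 2156 genes, 17.3%, were higher in column M2 and 1903, 15.3%, in column CD4, while 8379 were within the limit. The median ratio over all genes was 0.12, and 5% of the genes were below -2.22 and 5% above 2.37. Larger ratios were more frequent towards column M2, with 84 genes at 5 or more against 20 in the other direction. Among the 633 genes that reached 100 FPKM in one of the columns the order was turned, with 18.01% higher in column M2 and 35.2% in column CD4. Of the genes used, 10186 had 1 FPKM or more in both columns, 1442 in column M2 alone and 810 in column CD4 alone.

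The genes of the T-cell receptor and its first signalling steps stood highest in column M2. Of the 24 list members that were used, 23 were higher in column M2 and none in column CD4, with a median ratio of 6.15 beside 0.12 over all genes. The other 2 of the 26 listed genes had no usable row. The constant segments of the beta chain led the list. Trbc1 was at 434 FPKM in column M2 and 0.329 in column CD4, and Trbc2 at 235 and 0.12. Cd3g and Cd3d, the CD3 chains whose genes neighbour each other on chromosome 9, were at 203 and 72.9 FPKM in column M2 and at 0.264 and 0.0972 in column CD4. Cd247, the zeta chain, was at 102 FPKM in column M2 and was listed at 0 in column CD4. With all rows of its transcripts summed, Cd247 had 2.74 FPKM in column CD4, and its ratio came to 4.78. The kinases followed, with Lck at 209 against 0.214 FPKM and Zap70 at 56.7 against 0.0688. In column CD4 these values were as low as in column M1, where Lck was at 0.408 FPKM and Zap70 at 0.0547.

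Among the members nearer to equality were some that other leukocytes also use. Lcp2, an adaptor of T cells and of myeloid cells, was at 63.1 FPKM in column M2 and 49.97 in column CD4, the only used member within the limit. Fyn, a kinase of many cell types, was at 84.4 and 14.4 FPKM, and Rasgrp1, a Ras activator, at 54.7 and 15.5. The ratio of Rasgrp1 was 1.75, but came to 5.13 with all rows of its transcripts summed. Over the 23 members above 0 in both columns the level in column CD4 was 0.160% of that in column M2 at the median, from 0.0511% for Trbc2 to 79.2% for Lcp2.

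**Figure D2:**
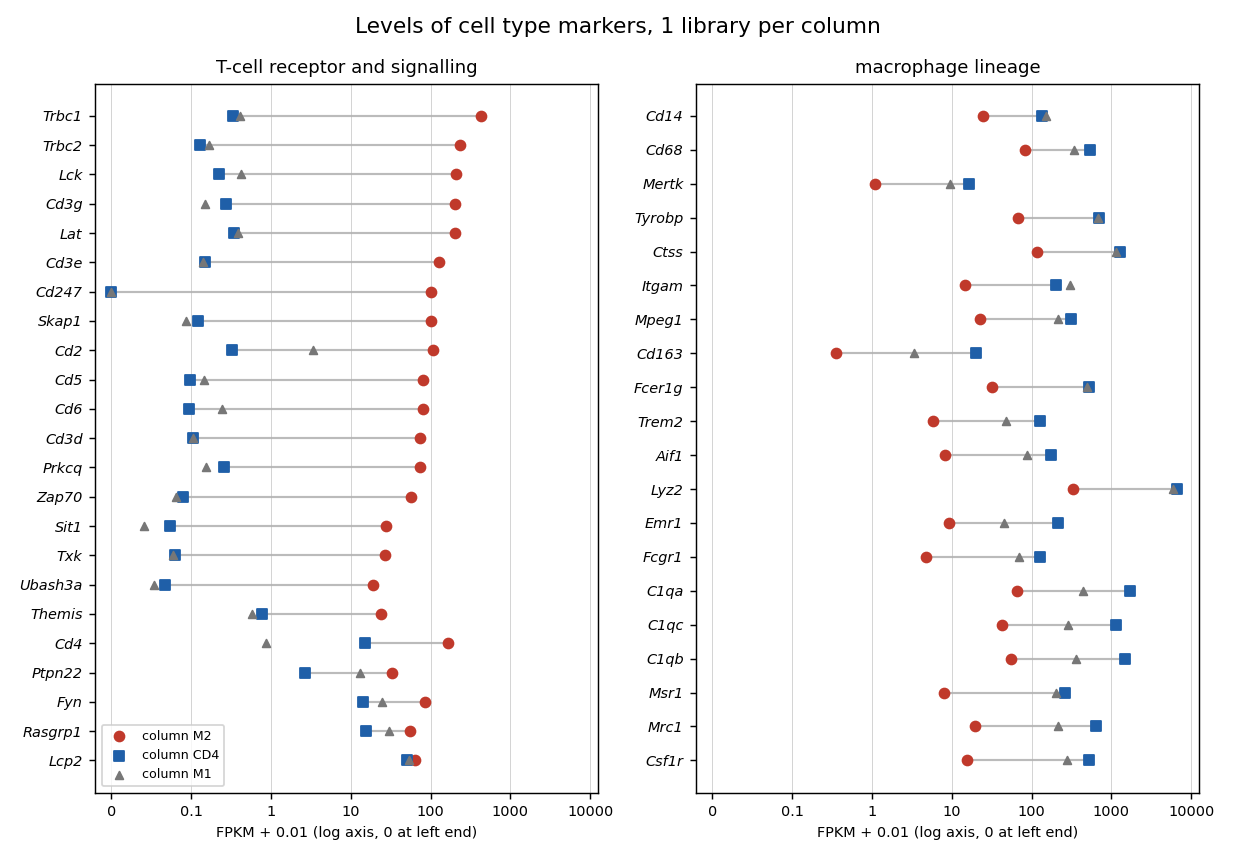
Levels (FPKM + 0.01, log axis) of the T-cell receptor list (left) and the macrophage list (right) in columns M2 (circles), CD4 (squares) and M1 (triangles), 1 library each, ordered by ratio, with 1 member of the T-cell list not drawn. For Cd3e the circle lies at 126 FPKM and the square at 0.141, while for Csf1r the circle lies at 15.3 FPKM and the square at 519. The lowest circle of the macrophage list is that of Cd163 at 0.341 FPKM, and most squares of the T-cell list lie below that level.

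The macrophage list showed the opposite order. All 20 lineage markers were higher in column CD4, with a median ratio of -4.27, beside 15.3% of all genes in that direction. Lyz2, the lysozyme of myeloid cells, was the gene of highest level in column CD4, at 6687 FPKM against 330 in column M2. C1qa, C1qb and C1qc, the chains of complement C1q that tissue macrophages make, were at 1690, 1481 and 1127 FPKM in column CD4 and at 64.9, 55.9 and 42.5 in column M2. Mrc1, the mannose receptor, was at 649 against 19.5 FPKM. The smallest difference of the list was that of Cd14, a co-receptor for lipopolysaccharide, with 136 against 24.3 FPKM, and the largest in fold that of Cd163, a receptor for haemoglobin, with 20.3 against 0.341.

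The low side of these lists was not alike. None of the 20 macrophage genes was listed at 0 in column M2, and their level there was 4.54% of that in column CD4 at the median, from 1.68% for Cd163 to 17.9% for Cd14. The T-cell receptor list stood at 0.160% in the opposite column, as given above. Summed over the list, macrophage markers came to 925 FPKM in column M2 and 16798 in column CD4. T-cell receptor genes came to 2661 FPKM in column M2 and 101 in column CD4, where Lcp2, Rasgrp1, Cd4 and Fyn made up most of the sum.

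The list of T-cell transcription factors had 18 of 22 genes higher in column M2 and 1 in column CD4, with a median of 2.58. Tcf7, which sets up the T-cell programme and is kept in naive and memory cells, was at 250 FPKM in column M2 and 0.0939 in column CD4, the largest ratio of any gene of the list, 7.84. Its partner Lef1 was at 94.997 and 0.0644 FPKM. Ets1 and Satb1, which both organise lymphocyte gene expression, were at 252 and 69.3 FPKM in column M2 and at 5.12 and 1.06 in column CD4. Runx3, better known from CD8 T cells, was the exception, with 3.59 FPKM in column M2 and 16.5 in column CD4.

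Receptors of naive and resting T cells were among the most different genes. Of 14 homing and survival genes, 13 were higher in column M2, with a median of 4.19. Ccr7, the receptor that guides cells into the T-cell zone, was at 122 FPKM against 0.464 in column CD4, and Il7r, the receptor for the survival cytokine IL-7, at 104 against 0.882. S1pr1, which lets lymphocytes leave lymphoid organs, was at 118 against 4.14 FPKM. Il4ra, shared by lymphoid and myeloid cells, was the member higher in column CD4, at 69.6 against 22.5 FPKM.

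Genes of regulatory T cells were higher in column M2 in 12 of 13 cases, with a median of 2.51, at lower levels than those of the T-cell receptor. Folr4, a surface protein of regulatory T cells, was at 53.8 FPKM against 0.124 in column CD4. Tnfrsf4, which encodes OX40, was at 19.9 against 0.423 FPKM, Ctla4, an inhibitory receptor, at 13.1 against 0.0393, and Il2ra, the alpha chain of the IL-2 receptor, at 10.2 against 0.129. Nrp1, also a receptor of myeloid and endothelial cells, was the exception with 7.25 FPKM in column M2 and 47.4 in column CD4. The costimulatory and inhibitory receptors had 11 of 13 genes higher in column M2 and a median of 3.50. Cd28, the main costimulatory receptor, was at 47.8 against 0.809 FPKM and Pdcd1, the inhibitory receptor PD-1, at 10.1 against 0.129. Lag3 was at 5.58 and 6.33 FPKM, and Havcr2, which encodes TIM-3 and is also found on myeloid cells, was higher in column CD4, at 4.51 against 0.650 FPKM.

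**Figure D3:**
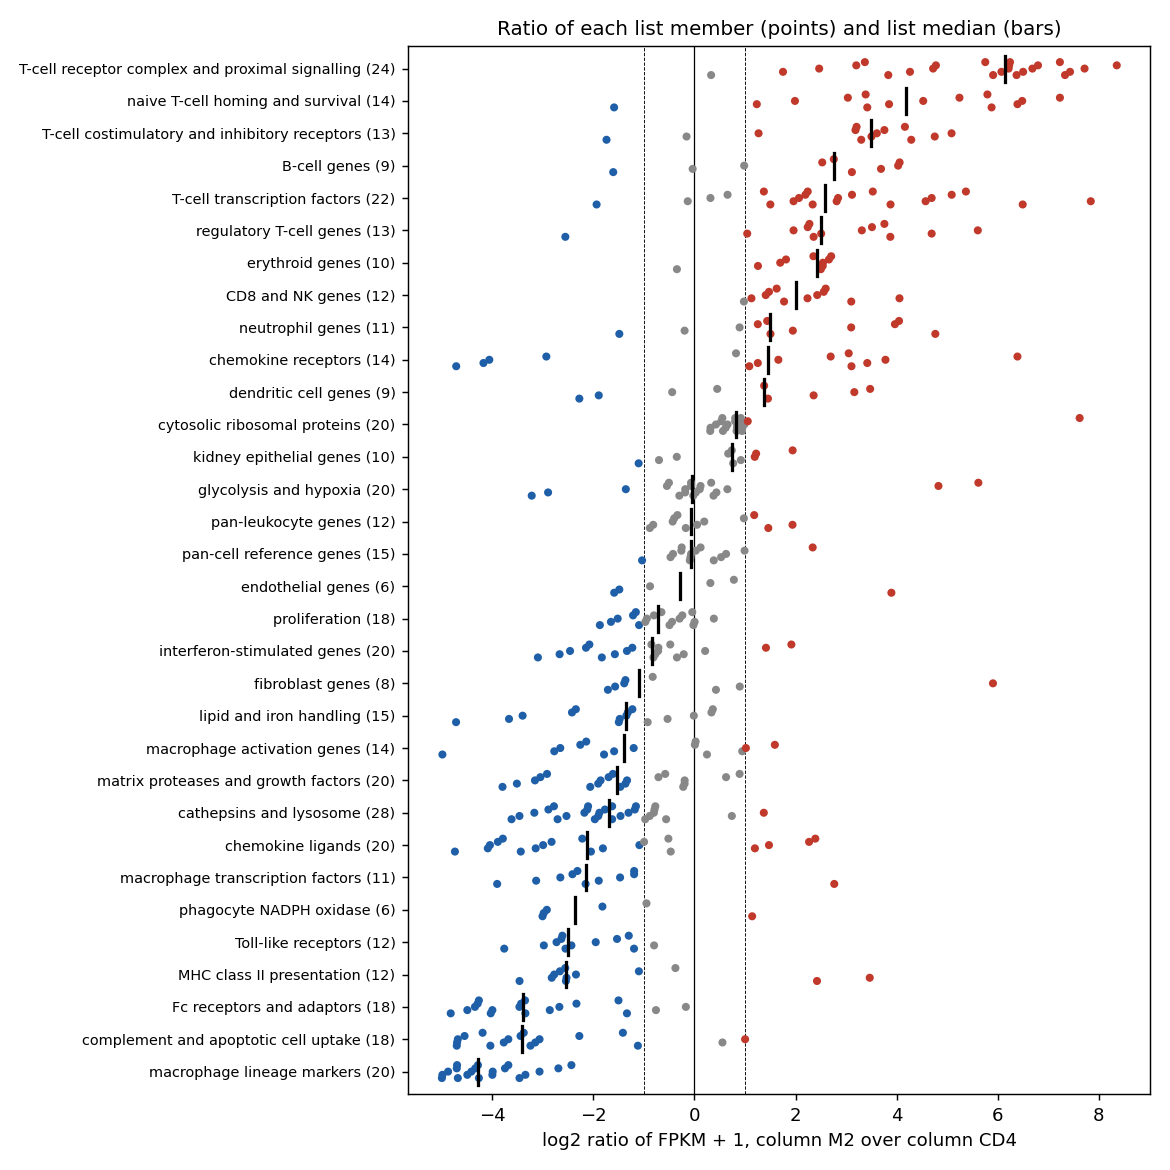
Each point is a used member of a gene list, placed by its log2 ratio of FPKM + 1 (column M2 over column CD4, so points to the right are higher in column M2), and each bar is the list's median, with the number of members used after the name. The lists run from the macrophage lineage at the bottom, median -4.27, to the T-cell receptor complex at the top, median 6.15, and the dashed lines mark a ratio of 1 in size.

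In column CD4 the genes of macrophage function were higher along with the lineage markers. Of 11 transcription factors of the lineage that were used, 10 were higher there, with a median of -2.153. Maf, a leucine zipper factor, was at 132 FPKM in column CD4 and 14.2 in column M2. It was low in column M1 as well, at 12.6 FPKM. Bhlhe41 was the exception with 5.80 FPKM in column M2 and a listed 0 in column CD4, but its ratio was -0.40 with all rows of its transcripts summed. Spi1, Irf8 and Tfec had no usable row.

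Receptors for antibody and for complement were higher in column CD4 nearly throughout. Of 18 Fc receptors, lectins and their adaptors, 16 were higher there, with a median of -3.39. Fcgr3, a low-affinity activating receptor for IgG, was at 296 FPKM against 9.51 in column M2, Fcgr2b, the inhibitory receptor, at 781 against 37.6, and Fcgr1, the high-affinity receptor, at 127 against 4.70. The exceptions were Fgr, a kinase of myeloid cells, with 6.90 FPKM in column CD4, 6.03 in column M2 and 80.1 in column M1, and Trem1, with 3.08, 1.41 and 18.3 FPKM. Among 18 genes of complement and of the uptake of dying cells, 16 were higher in column CD4, with a median of -3.41. Stab1, a scavenger receptor, was at 379 against 19.8 FPKM, and Gas6, a bridging molecule to the receptors Mertk and Axl, at 265 against 29.0. Mfge8, another bridging molecule, was higher in column M2, at 79.9 against 39.4 FPKM, and C3 was at 47.7 and 32.1 FPKM.

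Lysosomal genes were also higher in column CD4, by less. Of 28, 20 were higher there and 1 in column M2, with a median of -1.70. Legumain, Lgmn, and the cathepsins Ctss and Ctsb were at 1175, 1286 and 1116 FPKM in column CD4, and at 94.8, 116 and 162 in column M2. Psap, the precursor of the saposins, reached 1625 FPKM even in column M2, against 2834. Gpnmb, a membrane protein of lysosomes that melanocytes and tumor cells also make, was the exception with 82.6 FPKM in column M2 and 31.3 in column CD4. MHC class II genes had 9 of 12 members higher in column CD4 and a median of -2.54. H2-Aa was at 910 against 157 FPKM and H2-Ab1 at 576 against 97.2. H2-Oa and H2-Ob, the chains of the H2-O protein that B cells and thymic epithelium make, were higher in column M2, at 6.28 against 0.355 and 19.0 against 0.808 FPKM.

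Toll-like receptors and their partners were higher in column CD4 in 11 of 12 cases, with a median of -2.49, and the NADPH oxidase in 4 of 6, with a median of -2.37. Tlr2, a receptor for bacterial lipopeptides, was at 47.0 against 6.25 FPKM and Tlr7, a receptor for single-stranded RNA, at 34.2 against 3.46. Cybb, the catalytic subunit of the oxidase, was at 158 against 19.1 FPKM. Rac2, the small GTPase of all blood cells, was higher in column M2, at 211 against 95.1 FPKM. Genes of lipid and iron handling were higher in column CD4 in 10 of 15 cases, with a median of -1.35. Apoe, the main apolipoprotein of macrophages, was the gene of second highest level in column CD4, at 5211 FPKM, against 197 in column M2 and 687 in column M1. Slc11a1, the metal transporter of the phagosome, was at 67.7 against 4.41 FPKM and Hmox1, haem oxygenase, at 201 against 38.7.

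Chemokine genes were divided between the columns. Of 20 chemokine ligands used, 13 were higher in column CD4 and 4 in column M2, with a median of -2.13. The neighbours Ccl2, Ccl7, Ccl12 and Ccl8 on chromosome 11, which attract monocytes, were at 363, 245, 390 and 603 FPKM in column CD4 and at 44.7, 21.8, 13.7 and 34.5 in column M2. In column M1 the same genes were at 262, 0, 47.2 and 27.8 FPKM, the value of Ccl7 being a listed 0. Cxcl1 and Cxcl2, which attract neutrophils, and Ccl5 were higher in column M2, at 17.6 against 2.54, 73.2 against 14.4 and 34.1 against 11.6 FPKM. Of 14 receptors used, 9 were higher in column M2 and 4 in column CD4, with a median of 1.46. Among those 4 were the myeloid receptors Cx3cr1, at 140 against 4.38 FPKM, Ccr1, at 76.8 against 3.31, and Ccr2, at 183 against 23.1. Cxcr3 and Cxcr6, receptors of effector T cells, were at 19.1 and 14.3 FPKM in column M2 and at 1.42 and 0.118 in column CD4.

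Genes used to describe the activation of macrophages did not go in a common direction. Of 14 used, 8 were higher in column CD4 and 2 in column M2, with a median of -1.40. The median came to -0.62 with all rows summed and -0.19 without a minimum level, settings that change which genes enter. Over the same 14 genes it was -1.33 with all rows summed. Arg1, arginase, was at 88.5 FPKM in column CD4 and 12.1 in column M2, but highest in column M1, at 321. Il1b and Retnla followed the same order, with 92.3, 20.2 and 230 FPKM for Il1b and 4.78, 0.209 and 34.2 for Retnla. Tnf, Il10 and Nos2 were within the limit, with 11.95 and 11.87 FPKM for Tnf in columns M2 and CD4. Chi3l3 was higher in column M2, at 2.51 against 0.165 FPKM, and so was Cd274, which encodes the ligand PD-L1, at 17.2 against 7.996. Of 20 matrix proteases and growth factors, 13 were higher in column CD4 and none in column M2, with a median of -1.54. Mmp14, a membrane-bound protease, was at 54.2 against 2.97 FPKM, while Spp1, osteopontin, was at 761 and 652.

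Interferon-stimulated genes, cell cycle genes and glycolysis differed less. Of 20 interferon-stimulated genes, 9 were higher in column CD4 and 2 in column M2, with a median of -0.83. Mx1 and Ifi44 were at 13.7 and 48.3 FPKM in column CD4 and at 0.723 and 6.75 in column M2. Of 18 genes of proliferation 6 were higher in column CD4, with a median of -0.73. Among these were Aurkb, a kinase of mitosis, at 20.8 against 5.95 FPKM, and Birc5, at 37.1 against 12.3, while Mcm2 and Mcm6, subunits of the replicative helicase, were within the limit, at 22.7 and 39.8 FPKM in column M2 and at 22.98 and 41.003 in column CD4. Glycolysis and hypoxia genes had a median of -0.04, with 15 of 20 within the limit, Ldha at 244 and 239 FPKM. Tpi1 and Pfkp were listed at 0 in column CD4, with 48.1 and 27.4 FPKM in column M2 and 106 and 92.7 in column M1, and Ankrd37 was listed at 0 in column M2.

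Genes that all cells or all leukocytes share had medians near 0. The 15 reference genes had a median of -0.07 with 13 within the limit, and B2m, the light chain of MHC class I, was at 1668 and 1761 FPKM. The 12 pan-leukocyte genes had a median of -0.06, and Coro1a and Itgb2 were at 489 and 99.4 FPKM in column M2 and at 248 and 95.9 in column CD4. The listed ribosomal protein genes were shifted towards column M2, most of them by a small amount. Of 20 used, 18 were within the limit and the median was 0.82. Within these 20 genes, which leave out Rpl6, Rpl3 had the lowest ratio, 0.31, with 11.998 FPKM in column M2 and 9.46 in column CD4. Of all 67 Rpl and Rps genes used, 15 were higher in column M2 and 3 in column CD4, with a median of 0.78. With all rows summed these counts were 10 and 2. The shares over all genes were 17.3% and 15.3%.

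Within several families of signalling genes the columns differed in which member was high. All families were put together after the values were seen. Others were called in a single direction. Of 5 diacylglycerol kinases 2 were higher in column M2, and of 5 Maf and 3 Vav genes 2 and 1 were higher in column CD4. Among kinases of the Src family, Lck, Fyn and Blk were higher in column M2 and 2 members in column CD4, the median of 7 being -0.15. Lyn was at 117 FPKM in column CD4 and 15.2 in column M2. Among the Tec kinases, 2 of 4 were higher in column M2, among them Txk, at 26.8 against 0.0524 FPKM, and Btk and Tec in column CD4, Btk, the kinase of B cells and myeloid cells, at 38.9 against 5.35 FPKM. With all rows of their transcripts summed the ratio of Btk turned to 11.36 and that of Tec came to -0.30. The level of Btk in column M2 was then 104937 FPKM, against 5.35 from first complete rows. From first complete rows, the highest level in column M2 among genes of 500 bases or more was 4498 FPKM. Of 12 adaptors, 7 were higher in column M2 and 3 in column CD4. Those of the Skap family changed places, Skap1 with 99.9 FPKM in column M2 and 0.113 in column CD4, and Skap2 with 3.68 and 96.4. Lat and its relative Lat2 did the same, with 200 and 0.340 FPKM for Lat and 7.69 and 55.5 for Lat2. Of the chains with an ITAM signalling motif, the CD3 chains Cd3e, Cd3d, Cd3g and Cd247 were higher in column M2. So was Cd79a, at 18.2 FPKM against 0.151 in column CD4. Tyrobp and Fcer1g, the adaptors of Fc and TREM receptors, were higher in column CD4, at 700 against 68.0 and 530 against 32.3 FPKM. Of 8 genes of protein kinase C, 5 were higher in column M2 and 2 in column CD4. Prkcq, the isoform of the T-cell synapse, was at 73.9 FPKM in column M2 against 0.246 and Prkcd, a myeloid isoform, at 11.6 against 72.8. Of the 3 folate receptors, Folr4 was higher in column M2 and Folr2, a marker of resident macrophages, in column CD4, at 201 against 7.75 FPKM. Folr1 was within the limit, at 21.8 FPKM in column M2 and 11.7 in column CD4.

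**Figure D4:**
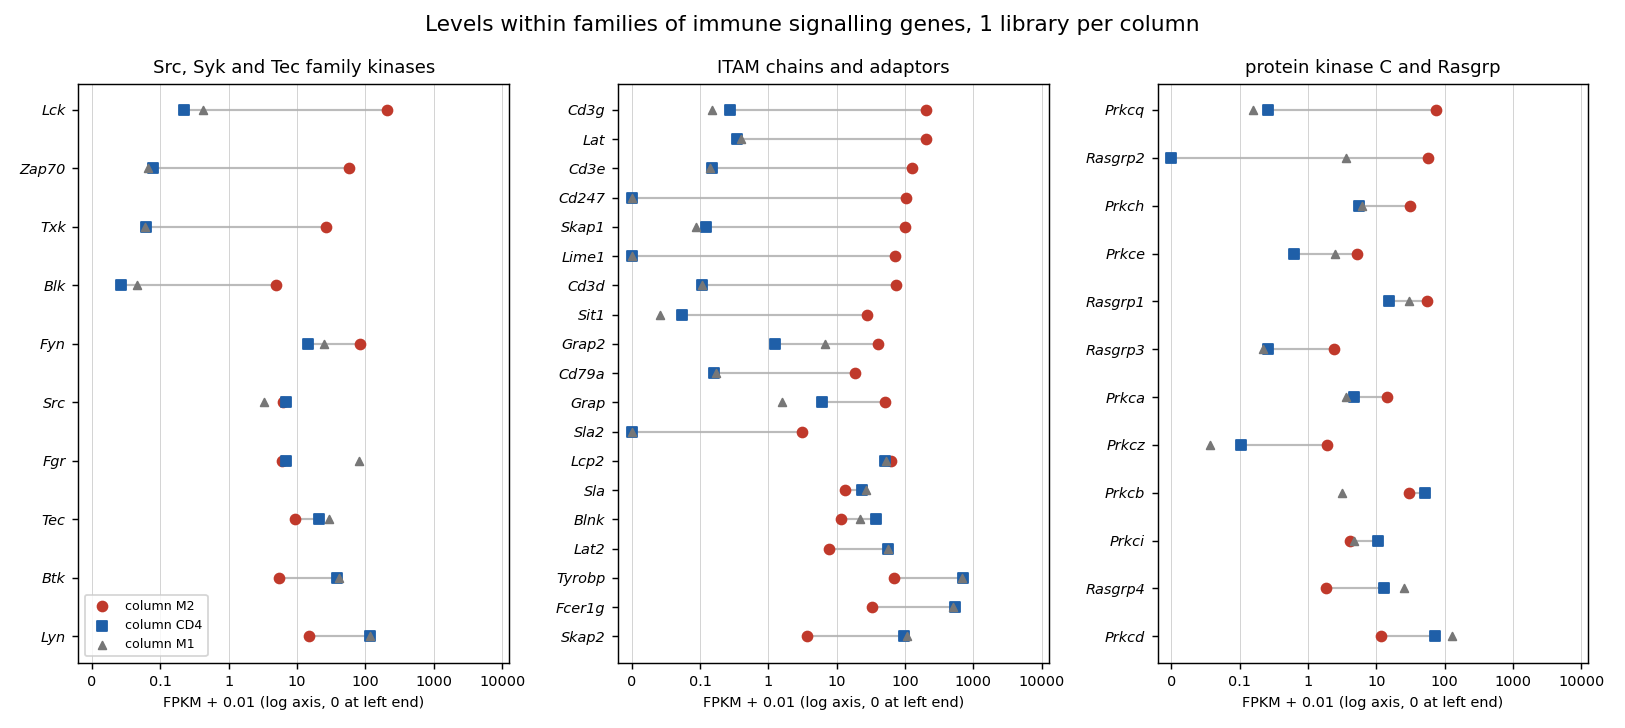
Levels (FPKM + 0.01, log axis) of related signalling genes in columns M2 (circles), CD4 (squares) and M1 (triangles), 1 library each, ordered within each panel from the highest ratio of M2 over CD4 to the lowest. Lck, at 209 FPKM in column M2 and 0.214 in column CD4, heads the kinases and Lyn, at 15.2 and 117 FPKM, stands last of those drawn.

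The upstream sequence of a few of these genes is shown as context for their place in the genome, since it is not part of the measurement. The 250 bases before the transcription start were taken from the RefSeq promoter table on GRCm38.p6, a later build than the NCBIM37 (mm9) of the table, for 17 of the 26 genes of the T-cell receptor list and 14 of the 20 macrophage markers. Both strands were searched for 6 short motifs, GAGGAAGT for PU.1, CCGGAAGT for other Ets factors, TGTGGTTT for RUNX, CTTTGAT for TCF and LEF, TCACGTGA for E-box factors and TGACTCA for AP-1. A match was found in 4 of these 17 genes and 3 of these 14. The 4 windows printed here, from both lists, hold a match in capitals, for TCF and LEF in Cd3d, PU.1 in Cd5 and C1qc, and RUNX in Lyz2. Not printed are the windows with a match of Fyn, for TCF and LEF, Txk, for RUNX, and Cd68, for AP-1. The windows are printed 5′ to 3′ on the strand of the gene, that of Cd3d on the plus strand at chr9:44981536-44981785, that of Cd5 on the minus strand at chr19:10738975-10739224, that of C1qc on the minus strand at chr4:136892915-136893164 and that of Lyz2 on the minus strand at chr10:117282273-117282522.
Cd3d: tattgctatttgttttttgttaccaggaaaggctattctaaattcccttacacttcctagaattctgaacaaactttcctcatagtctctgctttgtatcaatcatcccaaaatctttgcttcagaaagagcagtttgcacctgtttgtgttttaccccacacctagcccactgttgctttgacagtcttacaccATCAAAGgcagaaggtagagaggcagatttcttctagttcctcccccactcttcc
Cd5: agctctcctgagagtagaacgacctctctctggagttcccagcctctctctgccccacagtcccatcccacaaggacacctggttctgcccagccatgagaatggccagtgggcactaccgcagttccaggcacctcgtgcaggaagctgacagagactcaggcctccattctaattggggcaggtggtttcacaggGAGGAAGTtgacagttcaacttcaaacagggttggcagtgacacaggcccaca
C1qc: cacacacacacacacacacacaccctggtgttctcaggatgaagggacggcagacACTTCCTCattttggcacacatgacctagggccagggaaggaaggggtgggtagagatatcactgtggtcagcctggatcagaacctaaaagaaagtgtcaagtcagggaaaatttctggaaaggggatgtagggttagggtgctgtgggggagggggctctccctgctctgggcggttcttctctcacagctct
Lyz2: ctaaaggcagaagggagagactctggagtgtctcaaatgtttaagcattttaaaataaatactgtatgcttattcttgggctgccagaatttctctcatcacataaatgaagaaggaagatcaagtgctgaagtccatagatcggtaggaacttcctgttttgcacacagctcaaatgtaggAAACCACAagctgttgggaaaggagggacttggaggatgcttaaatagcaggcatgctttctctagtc
Of all 32851 windows of the table, 2.44% hold the PU.1 letters, 3.21% those of TCF and LEF and 1.49% those of RUNX. The shares were 4.46% for AP-1, 2.88% for other Ets factors and 0.785% for E-box factors. Windows with a match to any of these motifs were not counted, and some genes have several windows. The counts of genes with a match therefore have no background beside them. The PU.1 letters stand in a window of either list, upstream of Cd5 with 81.3 FPKM in column M2 and 0.0861 in column CD4, and of C1qc with the opposite order. Only 79.1% of the protein-coding genes used had a window, and motifs were not compared between groups of genes.

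The antigen receptor loci accounted for the longest runs of neighbouring genes that differed. Consecutive used genes higher in column M2 formed a run of 66 at the T-cell receptor alpha and delta locus on chromosome 14, with further runs of 57 at the immunoglobulin heavy chain locus on chromosome 12, 56 at the kappa locus on chromosome 6, 21 on chromosome 14 and 19 at the T-cell receptor beta locus on chromosome 6. Of the 103 segments used in the alpha and delta locus (chr14:53047603-54838515, NCBIM37) 102 were higher in column M2, and 93 were listed at 0 in column CD4. Their levels summed to 657 FPKM in column M2, 0.290 in column CD4 and 0.773 in column M1. In the beta locus (chr6:40841295-41508370) all 18 segments used were higher in column M2, and the sums were 2429, 0.819 and 1.26 FPKM. The joining segments Trbj1-4 and Trbj1-6, of 51 and 53 bases, had the largest ratios of all named genes, 9.51 and 9.13, on levels of 730 and 560 FPKM in column M2 and a listed 0 in column CD4. FPKM of segments shorter than a sequenced fragment is not comparable with that of longer genes.

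Immunoglobulin segments were in the same column. In the heavy chain locus (chr12:114544600-117238672) all 56 segments used, and in the kappa locus (chr6:67505630-70676751) 60 of 62, were higher in column M2. The sums were 341 and 530 FPKM there and 0.760 and 2.85 in column CD4. Igkc, the constant segment of the kappa chain, was at 155 FPKM in column M2 and 0.614 in column CD4. Genes of B cells other than these were higher in column M2 in 6 of 9 cases and in column CD4 in 1, with a median of 2.76. Cd79a and Ms4a1, which mark B cells, were at 18.2 and 13.5 FPKM in column M2 and at 0.151 and 0.123 in column CD4, and Cd79b was listed at 0 in column M2.

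Markers of further cells were looked at in the same way, beside 17.3% of all genes higher in column M2. Of 12 genes of CD8 T cells and NK cells 11 were higher there, with Cd8a at 5.18 FPKM against 0.0494 in column CD4 and Nkg7 at 17.1 against 0.0902. Of 11 neutrophil genes 8 were higher there and 1 in column CD4. S100a8 was at 84.5 against 4.17 FPKM, S100a9 at 110 against 6.08 and Ngp at 26.6 against 0.0126. Of 10 erythroid genes 9 were higher there, with Hba-a2 at 295 against 49.8 FPKM. Dendritic cell genes had 5 of 9 members higher in column M2 and 2 in column CD4. Siglech, a marker of plasmacytoid cells, had the highest ratio of that list, at 13.2 against 0.280 FPKM. Kidney epithelial genes had 3 of 10 higher in column M2 and 1 in column CD4, with Krt8 at 54.6 against 23.3 FPKM. The median ratios of these lists were 2.01, 1.505, 2.43, 1.38 and 0.75. Fibroblast genes had 4 of 8 members higher in column CD4, among them Col1a1, at 7.96 against 2.02 FPKM, and 1 in column M2, Thy1, which T cells also carry, at 171 against 1.87. Endothelial genes had 2 of 6 higher in column CD4 and 1 in column M2, Pecam1, also found on leukocytes, at 35.0 against 1.42 FPKM. The part of these cells in the differences between the columns was not tested.

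Outside the antigen receptor loci, some gene clusters were in one column as a whole. These were chosen after their values were seen. The 7 Gimap genes on chromosome 6, GTPases of lymphocyte survival, were all higher in column M2, with ratios from 4.49 for Gimap5 to 7.63 for Gimap4, and their levels summed to 797 FPKM against 1.93 in column CD4. A run of 7 genes on chromosome 5 higher in column M2 held the guanylate-binding proteins Gbp4, Gbp6, Gbp8, Gbp9, Gbp10 and Gbp11, interferon-induced GTPases, with Gbp4 at 60.5 against 6.14 FPKM and the neighbour Lrrc8b. With all rows summed the ratio of Gbp8 turned to -1.39 and that of Lrrc8b, listed at 0 in column CD4, came to -0.15. Towards column CD4, the longest run of protein-coding genes had 8 members on chromosome 6, from the lectin receptor Clec4a1 to Cd163, in which Clec4n, which encodes Dectin-2, was at 330 against 15.9 FPKM. A run of 7 on chromosome 11 held the Cd300 receptors, with Gm11711 at 142 against 2.05 FPKM. A run of 6 on chromosome 7 held Lilrb3, Pira5, Gm15448, Pira2, Lilra6 and Lair1, most of them immunoglobulin-like receptors of leukocytes. In the Ms4a cluster on chromosome 19 the members were divided, Ms4a4b at 384 FPKM in column M2 and 2.24 in column CD4, Ms4a6d at 45.2 and 404.

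Among the 15 largest ratios in each direction values of 0 in the other column were more frequent on one side. Of the 15 genes higher in column M2, 10 had a value above 0 in column CD4. Those 10 include Gimap6, at 181 against 0.381 FPKM, and Sept1, a septin of lymphocytes, at 151 against 0.225. Among the genes of the 15 listed at 0 in column CD4 were Ptprcap, a protein associated with CD45, at 151 FPKM, and the short segment Gm16878. Of the 15 genes higher in column CD4, 13 were listed at 0 in column M2. These were Ms4a6c, Rpl14-ps1, Gm5526, Dbi, Unc93b1, Commd1, Dram2, Cmtm3, Rpl6, Tceb2, Cept1, Mndal and Vkorc1, and no fold is given for them. For 11 of the 13 another row of the same transcripts held a value in column M2, such as 106 FPKM for Dbi, which encodes acyl-CoA binding protein, against 124 in column CD4. The remaining genes were Cbr2, a carbonyl reductase, at 431 FPKM against 7.10 in column M2, and Gm11711.

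This splitting of values over rows touched the counts of all genes. Of the 2156 genes higher in column M2, 585 were listed at 0 in column CD4, and 217 of those were above 0 with all rows summed. Of the 1903 genes higher in column CD4, 320 were listed at 0 in column M2, and 194 of those were above 0 with all rows summed. With all rows summed the call was the same for 1767 genes, 82.0%, and 1523 genes, 80.0%, and opposite for 26 and 42. Of the T-cell receptor list, 23 genes were again higher in column M2, and of the macrophage list all 20 in column CD4. Among the genes named above with a ratio of at least 1 in size, other than those at 0 and beside Btk, Tec and Gbp8, the ratio grew by more than 1.5 times with all rows summed for Rasgrp1, to 5.13, S1pr1, to 9.57, and Cd5, to 13.31. The level of Cd5 in column M2 was then 11066.5 FPKM, against 81.3 from its first complete row. The ratio shrank by more than 1.5 times for Cxcl1, to 1.03, Cxcl2, to 1.26, Mx1, to -1.39, Prkcd, to -1.39, and Ctsb, to -1.83.

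**Figure D5:**
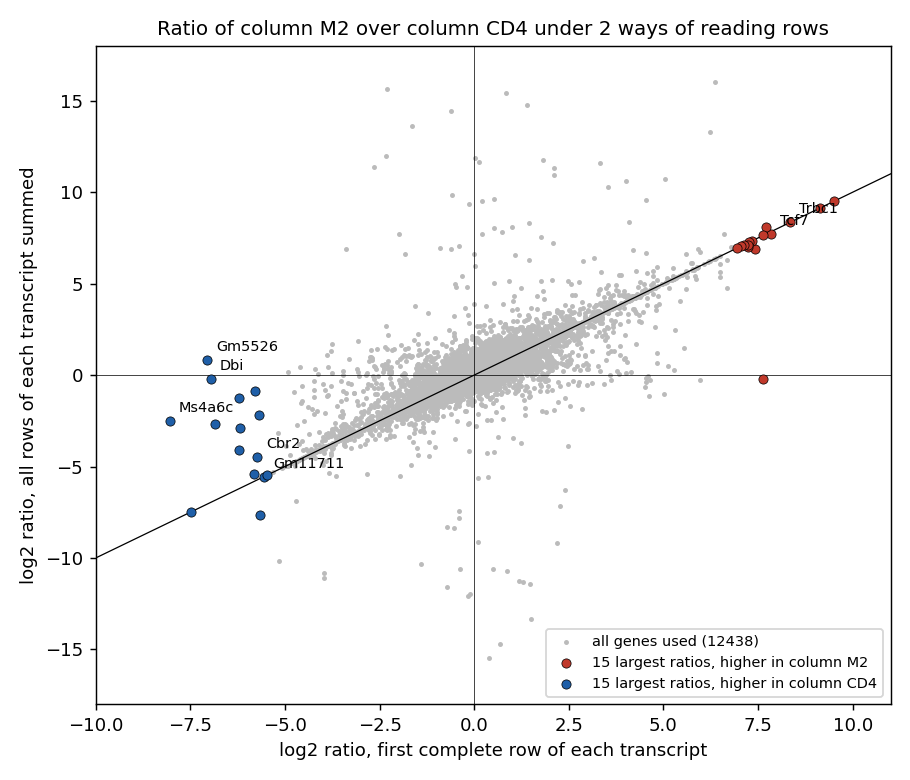
Each point is a gene, with its log2 ratio of FPKM + 1 (column M2 over column CD4) from the first complete row of each transcript on the horizontal axis and from all rows summed on the vertical axis. Coloured points are the 15 largest ratios in each direction. Of the red points, 14 keep a ratio of 1 or more, and of the blue points 12 keep one of -1 or less, Dbi, Gm5526 and Tceb2 being the exceptions.

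The genes higher in either column were of like length, with a median longest transcript of 2743 bases towards column M2, 2871 towards column CD4 and 2752 for genes within the limit. Genes of under 500 bases were more frequent towards column M2, 326 of 2156 against 47 of 1903. Among protein-coding genes alone, 1743 were higher in column M2 and 1784 in column CD4, 16.0% and 16.4%. Genes higher in column M2 had a median level of 9.91 FPKM there, 1.06 in column CD4 and 2.02 in column M1. Genes higher in column CD4 had a median of 15.9 FPKM there, 3.17 in column M2 and 12.6 in column M1. The comparisons with column M1 share the libraries compared here and are given as values alone.

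Depth is not part of FPKM values. From the lowest values, taken to be those of 1 fragment, the libraries labelled M2, CD4 and M1 were estimated at about 59000000, 63000000 and 62000000 fragments. The estimates went from 56000000 to 60000000, from 61000000 to 65000000 and from 61000000 to 62000000 over other windows of low values, all chosen after the values were seen. A gene with 2 kilobases of transcript and 1 FPKM would then rest on about 117 and 127 fragments in columns M2 and CD4. The 0.141 FPKM of Cd3e in column CD4 would be about 13 fragments, with an exact 95% Poisson interval of 0.0762 to 0.245 FPKM, which covers counting error only.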

How the data were processed

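RNA of 3 sorted cell subsets, labelled M1, M2 and CD4, was sequenced, 1 library each. The authors aligned reads to mm9 with TopHat and Bowtie, estimated transcript levels with Cufflinks and an Ensembl annotation, and deposited FPKM values in 1 table with a column per library (per the labels and the study's methods). A dash stood in 23458 rows of the column headed M2 and 28385 of that headed CD4, and 11521 transcript identifiers had more than 1 row.

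For each identifier the first row with values in all 3 columns was kept. Of rows with an identifier and a value above 0, this left out 36.7% in the column headed M2. The shares were 29.9% for the column headed CD4 and 30.1% for that headed M1. Of 92519 identifiers, 90316 were found in the GENCODE annotation of NCBIM37, and rows were summed per gene. Genes with 1 FPKM in either column were compared by the log2 ratio of FPKM + 1, with a limit of 1, as a description without a test. The percentages of genes called, 17.3 and 15.3, are the background for each list. The members and all lists were chosen with earlier results of these data known. Named genes were the sort markers, list members, the 15 largest ratios in each direction with 10 FPKM or more in the higher column, the 10 highest levels in each column among genes of 500 bases or more, and members of the 5 longest runs of neighbouring genes past the limit. Genes outside this rule are said to be chosen after their values were seen, as were Igkc, Skap2, Folr2, Ms4a4b and Ms4a6d. No column was left unmatched. Alternatives were other row rules, pseudocounts, minimum levels, scalings and gene sets. Analyses used Python 3.11.15 with matplotlib 3.10.9, scipy 1.17.1, pandas 2.3.3 and numpy 2.4.6. Some genes that were fitted and counted with the others are not reported here by name.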

Additional observations from a re-analysis of the deposited data

Results flagged for a closer look

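Rows without a transcript identifier were not part of the comparison and were looked at again because they hold signal. Of 10182 such rows, 2493 had 1 FPKM or more in the column headed M2 or CD4. Of these, 938 had 1 FPKM or more in the column headed M2 and a dash in that headed CD4, 729 the reverse, and 826 values in both columns. Among the 826, 72 were higher in the column headed M2 and 65 in that headed CD4 by the same limit. The rows name no gene and are given as counts.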

How the results depend on the processing

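No paired analysis was possible because each group has 1 library. Of 65 values of the main results under other settings 50 stayed within the limits used. With a minimum of 10 FPKM, 1070 and 1198 genes were higher in the columns headed M2 and CD4, and with 1 FPKM in both columns 1094 and 1292, since fewer genes enter. The T-cell receptor median was 8.46 with a pseudocount of 0.1, 6.998 with 0.5, and 2.47 with 1 FPKM required in both columns, which removes most members. The median of all genes was 0.22 with all rows summed, 0.16 with the highest row, 0.00 without a minimum, 0.0278 with 10 FPKM, 0.0655 with 1 FPKM in both, 0.27 with a common total, 0.0534 after centring, 0.0948 for protein-coding genes and 0.0934 for genes of 500 bases or more. With a common total, 2582 and 1652 genes were higher in the columns headed M2 and CD4, and after centring 1975 and 2011.

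The sign turned for several results. With all rows summed or the highest row, Gm5526 came to 0.81 and 7.88, since its other row holds the missing value. With 10 FPKM the medians of chemokine receptors and fibroblast genes were -1.05 and 0.90, and with 1 FPKM in both columns those of regulatory T-cell genes, chemokine receptors, B-cell genes and dendritic cell genes were -0.14, -3.49, -0.82 and -2.28, as genes low in one column are left out. The endothelial median came to 0.31 with all rows summed, 0.32 with the highest row, 1.21 with 10 FPKM and 0.55 with 1 FPKM in both. Each of these settings changes which genes enter. Over the 6 endothelial genes of the main setting the median was -0.28, and -0.29 with all rows summed. With a common total the medians of glycolysis, reference and pan-leukocyte genes came to 0.12, 0.0957 and 0.105.

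Other list medians of at least 1 in size moved by more than 1.5 times without turning. With all rows summed, chemokine receptors came to 2.70, Toll-like receptors to -1.53 and fibroblast genes to -0.70, and with the highest row chemokine receptors came to 2.61 and activation genes to -0.60. The minimum was applied again in these settings, so other members entered. Over the members of the main setting these 3 medians with all rows summed were 2.75 for chemokine receptors, -1.98 for Toll-like receptors and -1.01 for fibroblast genes. Without a minimum, B-cell, dendritic cell and fibroblast genes came to 1.76, 0.45 and -0.0812. With 10 FPKM, neutrophil genes came to 3.97 and dendritic cell genes to 0.60, and with 1 FPKM in both columns homing genes came to 2.51 and costimulatory receptors to 1.27. A pseudocount of 0.1 moved the medians of 9 lists away from 0, that of regulatory T-cell genes to 5.11. A smaller pseudocount enlarges the size of a ratio by arithmetic, most where levels in a column are low. Other causes were not tested. The macrophage median lay between -4.44 and -4.12 under every setting run.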
